A study of Homo sapiens with 24 samples.

Results

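The genes described here are the amino acid transporter families SLC1, SLC3, SLC6, SLC7, SLC36, SLC38 and SLC43, taken as all protein-coding genes whose symbols are one of these family names followed by A and a number. The rule finds 59 of the 58735 genes in the table, of which 19951 are protein-coding, and it uses no measured value. The choice of these families, and of the lists set beside them, was made with earlier results of these data known. Of the 59 members, 26 reached 1 FPKM (fragments per kilobase of gene length, with a scaling of each library that is not given, the unit of all levels below) in at least 3 libraries of a line and were tested: 22 in Nalm6, 24 in Sem and 20 in both. The other 33 were too low to test, and 12 of these had no read in any library. Tested members were 3 of 7 in SLC1, 1 of 2 in SLC3, 3 of 19 in SLC6, 8 of 13 in SLC7, 2 of 4 in SLC36, 6 of 11 in SLC38 and 3 of 3 in SLC43.

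RNA came from Nalm6 and Sem, both established human cell lines grown from acute lymphoblastic leukaemia of B cell precursors. Sem has a rearrangement of KMT2A. Each line was left untreated, given 10 µM ibrutinib, given asparaginase or given both, with 3 libraries in each of the 8 groups. Ibrutinib is a small molecule inhibitor of the kinase BTK, and asparaginase is an enzyme that breaks down asparagine and, more slowly, glutamine outside the cell. Treatment lasted 24 h, and the labels do not say when the untreated cells were harvested. The asparaginase dose is uncertain, since the treatment protocol gives 0.5 IU/ml and other labels give 1 IU/ml. Nothing says that the 3 libraries of a group are separate cultures, so p-values cover no more than the variation among these libraries, part or all of which may be technical. In bulk RNA, fewer cells of a kind and less RNA per cell cannot be told apart.

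Amino acid carriers move amino acids across the plasma membrane or out of lysosomes. The heavy chain SLC3A2 pairs with light chains such as SLC7A5, which exchanges large neutral amino acids such as leucine, and SLC7A11, which takes up cystine in exchange for glutamate. Many carrier genes are known targets of the amino acid response, in which uncharged tRNAs activate the kinase GCN2 (gene EIF2AK4), translation of the factor ATF4 rises and ATF4 binds C/EBP-ATF response elements with C/EBP partners.

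Reads assigned to genes numbered 15032899 to 18136263 a library. Coordinates below are the table's, on hg38. The deposited values of 1 or more had lost their decimal point, and all 518 such values of the members were restored from whole read counts with a posterior of at least 0.993. Each of the 12 B cell precursor markers examined was expressed in Nalm6 and 10 in Sem (DNTT and RAG1 did not reach 1 FPKM in 3 Sem libraries). The summed level of 12 T and NK cell markers was 1.75 to 12 FPKM in Nalm6 and 84.2 to 124 FPKM in Sem, with TRAC and NKG7 the 2 detected and CD3D and CD3E at 0 in both lines. Libraries 2 of untreated, 1 of asparaginase and 1 of combination Nalm6 correlated less with their group than the others did, and they held the lowest SLC7A5, SLC1A5 and SLC43A1 values of their groups.

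The starts of 44 of the 59 members, and of 21 of the 26 tested ones, are in the RefSeq promoter table used here (GRCh38.p14, 250 bases before to 50 after each start). They were searched on both strands for TGATGNAA, the core of the C/EBP-ATF response element, and for TGACNNNGC, the core of the antioxidant response element, since many members rose together. The first was found in 4 of the 21 tested members (19.0%), beside 3.6% of all 35116 promoters of this length, and the second in 5 of 21 (23.8%), beside 13.3%. Over all 44 members in the table the shares were 9.1% and 11.4%, the second below that of all promoters, since the untested members held neither sequence. These comparisons are not like for like. The 35116 promoters were not limited to genes tested here and may include several of the same gene. For each member only the first listed start was searched, so a match at any other start would have been missed. Whether tested members differ in these shares from other tested genes was not tested. A match is a description of the sequence and not a bound site. These are the 4 matches to TGATGNAA with 5 to 10 bases on each side, 5′ to 3′ on the strand of the gene, the match in capitals, with first bases at positions -220, 38, -4 and 8 from the start, in this order:
SLC1A3, chr5:36596358-36596385, plus strand: aggaaatgacTGATGCAAagcagggtta
SLC3A2, chr11:62881726-62881748, plus strand: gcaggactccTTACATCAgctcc
SLC38A1, chr12:46266503-46266530, minus strand: cagacccgaaTGATGAAAagggatcagc
SLC7A1, chr13:29595664-29595691, minus strand: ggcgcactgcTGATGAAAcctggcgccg
In SLC3A2 the match is on the opposite strand. The RefSeq start lies inside the gene as the deposited table draws it for SLC3A2 and SLC38A1 and outside it for SLC1A3. The 250 bases before the start are shown for the 2 genes that held both cores, SLC3A2 and SLC7A1, with the TGACNNNGC match in capitals, at positions -37 and -85:
SLC3A2, chr11:62881449-62881698, plus strand: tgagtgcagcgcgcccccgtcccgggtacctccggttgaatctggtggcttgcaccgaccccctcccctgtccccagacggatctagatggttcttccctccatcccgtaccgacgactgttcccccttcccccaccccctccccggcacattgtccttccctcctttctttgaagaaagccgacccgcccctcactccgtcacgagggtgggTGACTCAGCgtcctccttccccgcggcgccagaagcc
SLC7A1, chr13:29595689-29595938, minus strand: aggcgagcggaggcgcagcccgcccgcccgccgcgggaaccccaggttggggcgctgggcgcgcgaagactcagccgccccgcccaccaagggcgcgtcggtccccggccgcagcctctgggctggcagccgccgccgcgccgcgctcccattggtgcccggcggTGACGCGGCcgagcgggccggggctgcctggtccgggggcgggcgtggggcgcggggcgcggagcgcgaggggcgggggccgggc
SLC7A5 held a TGACNNNGC match across its start, from position -2:
SLC7A5, chr16:87869491-87869519, minus strand: gcggggttccTGACGCAGCtgcgggcggc
The other TGACNNNGC matches were in SLC7A6, at positions -197 and -29, and in SLC7A7, at -88. With asparaginase SLC7A6 passed in Sem alone, by a small rise. SLC7A7 did not pass in Sem and was not tested in Nalm6. SLC6A9, SLC38A2, SLC43A1 and SLC1A4, which also rose with asparaginase, had neither sequence in this window, and SLC7A11 and SLC7A3 were not in the promoter table. The TGATGNAA matches in SLC3A2, SLC7A1 and SLC38A1 belong to genes that rose with asparaginase in both lines, and that in SLC1A3 to a gene that fell in Nalm6.

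In untreated cells of both lines the same 5 members were highest: SLC7A5, SLC1A5, SLC38A2, SLC38A1 and SLC3A2. SLC7A5 was first in Nalm6 (124 ± 17.3 FPKM, mean ± SD, n = 3) and SLC1A5, an exchanger of neutral amino acids including glutamine, was first in Sem (98.4 ± 4.8). In Nalm6, SLC38A2 (50.2 ± 2.73), SLC38A1 (42.9 ± 0.382) and SLC3A2 (39.8 ± 0.907) followed. In Sem the order after SLC1A5 was SLC7A5 (82.8 ± 1.97), SLC38A2 (65.8 ± 3), SLC38A1 (49.7 ± 3.82) and SLC3A2 (31.8 ± 1.55). The summed level of all 59 members was 494 FPKM in Nalm6 and 520.0 in Sem.

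The lines differed in which cationic carriers they expressed. SLC7A1, a carrier of arginine and lysine, was present in both, at 33.6 FPKM in Nalm6 and 26.6 in Sem. Its relatives SLC7A2 and SLC7A3 had no read in any of the 12 Nalm6 libraries and stood at 15.9 ± 1.42 and 13.2 ± 1.04 FPKM in untreated Sem, at least 662-fold and 157-fold above a floor of 3 reads a library. SLC7A7, a light chain that exports cationic amino acids in exchange for neutral ones, was 0.472 ± 0.105 FPKM in Nalm6 and 6.87 ± 0.575 in Sem (log2 difference of FPKM + 1, Sem minus Nalm6, 2.42 ± 0.08 SE, limma adjusted p = 3e-16). SLC7A8, a light chain for neutral amino acids, had 5 reads over the 12 Nalm6 libraries and 1.05 FPKM in untreated Sem. In the other direction, the taurine carrier SLC6A6 (12.04 against 3.21 FPKM), the glycine carrier SLC6A9 (3.28 against 0.549) and the glutamate carrier SLC1A3 (2.35 against 0.449) were lower in Sem, with differences of -1.63, -1.46 and -1.22 (limma adjusted p = 2.4e-14, 1.9e-12 and 3e-10).

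Of the 26 members tested, 12 were higher in untreated Sem and 9 lower, beside 34% and 31.8% of all 15116 genes tested called higher and lower. SLC7A2, SLC7A3, SLC7A7 and SLC7A8, called higher, passed the filter of 1 FPKM only through Sem libraries. SLC1A3, called lower, passed it only through Nalm6 libraries. A difference between the lines was thus part of what let these members be tested, and their p-values are to be read with that limit. All genes went through the same filter. Members called higher also included SLC1A4 (0.90), SLC36A4 (0.89), SLC7A6 (0.78) and SLC43A2 (0.61), and members called lower SLC7A5 (-0.57), SLC43A1 (-0.37), SLC7A1 (-0.32) and SLC3A2 (-0.32). The differences of SLC38A10, SLC38A7, SLC38A9, SLC43A3 and SLC6A16 did not pass. SLC1A5, at 0.22 (limma adjusted p = 0.0354), did not pass without Nalm6 untreated library 2 (0.246), Sem untreated library 1 (0.0718) or Sem untreated library 3 (0.115), each with its adjusted p. SLC7A11, at -0.15 (limma adjusted p = 0.0166), did not pass without Sem untreated library 1 (0.0743).

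**Figure D1:**
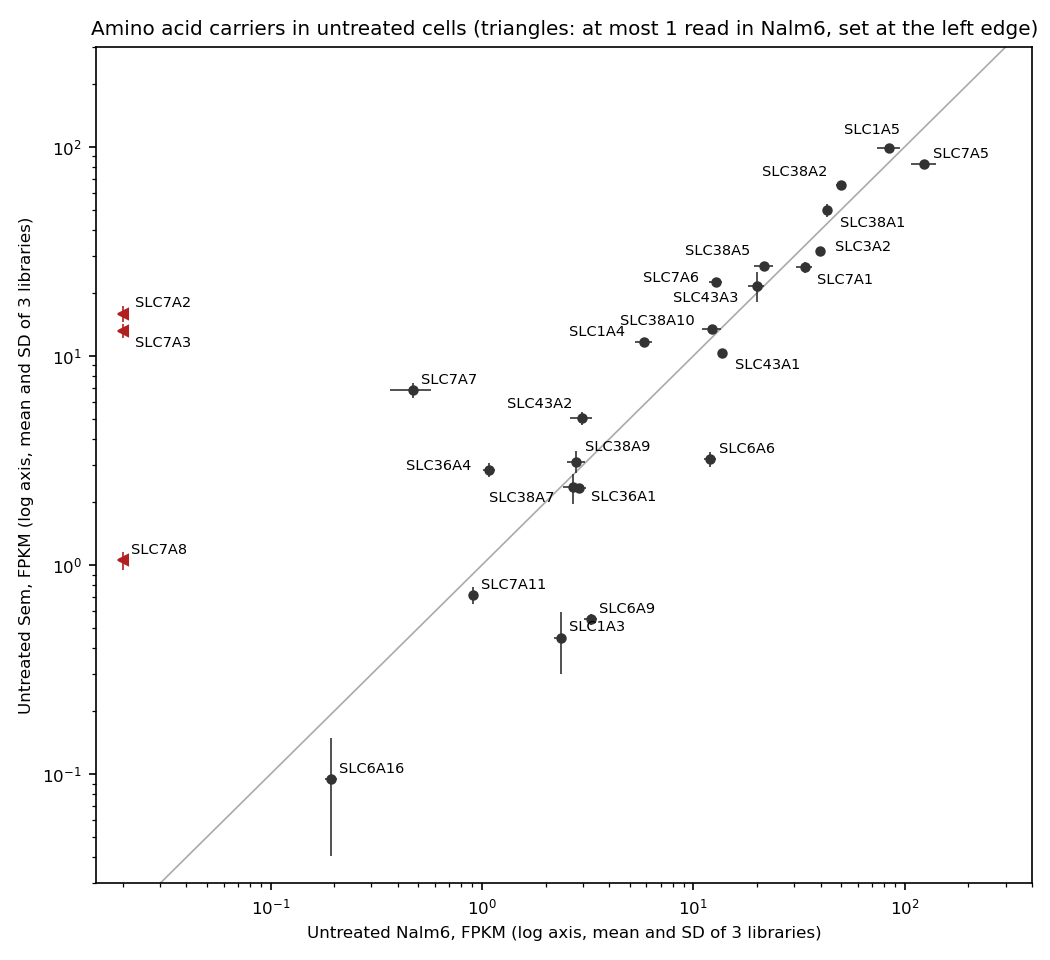
Mean FPKM of the 26 tested members in untreated Nalm6 (horizontal) and untreated Sem (vertical), both on log axes, with bars of 1 SD over 3 libraries; the grey line marks equal levels. SLC7A2, SLC7A3 and SLC7A8 had 0, 0 and 1 read in untreated Nalm6 and are drawn as triangles at the left edge, while SLC7A5 and SLC1A5 lie at the upper right.

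Asparaginase was first compared with no treatment. In Nalm6 13 of 22 tested members rose and 4 fell, beside 28.2% and 28.1% of all 13237 genes tested. In Sem 13 of 24 rose and 2 fell, beside 11.4% and 15.1% of all 13417 genes tested. Some members passed the filter of 1 FPKM only through groups in which they were high. Untreated libraries were under it for SLC6A16 in Nalm6, SLC6A9 in Sem and SLC7A11 in both lines. Asparaginase libraries were under it for SLC1A3 and SLC36A4 in Nalm6. A change was thus part of what let these members be tested, here and in the comparisons below. The same filter applied to all genes. The median log2 change of FPKM + 1 over tested members was 0.39 in Nalm6 and 0.20 in Sem, and that of all genes tested 0.02 and 0.00. Of the 20 members tested in both lines, 9 rose in both (SLC7A5, SLC3A2, SLC7A11, SLC7A1, SLC1A4, SLC38A1, SLC38A2, SLC43A1 and SLC6A9), SLC38A5 and SLC6A6 fell in both, and SLC43A3 fell in Nalm6 and rose in Sem. The share of all genes called alike in both lines was not computed, here or in the comparisons below. Members named as called in both lines are therefore a description without that background. After rescaling to TPM, which sets all length-scaled values of a library to 1 common sum and moved the median of all genes in Nalm6 to 0.17, 15 members were higher and 3 lower, and over all genes tested 5081 were higher and 2551 lower in place of 3738 and 3714. In Sem under the same rescaling 14 members were higher and 1 lower, and over all genes tested 2693 were higher and 1150 lower in place of 1525 and 2021. The summed level of all members was 742 FPKM with asparaginase in Nalm6 and 846 in Sem, above the untreated sums. The share of reads from mitochondrial genes was 3.58% to 3.91% in untreated Nalm6 and 4.5% to 4.81% with asparaginase there, and its part in the changes was not tested.

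The heavy chain SLC3A2 carries its light chains to the plasma membrane. The SLC3A2 gene (ENSG00000168003) lies on the plus strand of chromosome 11, from 62856102 to 62888875. In Nalm6 SLC3A2 stood at 40.3, 40.3 and 38.7 FPKM untreated, 55.4, 53.4 and 51.5 with ibrutinib, 90.7, 100.2 and 95 with asparaginase and 74.2, 85.4 and 80.6 with the combination. In Sem SLC3A2 stood at 33.4, 30.2 and 31.7 FPKM untreated, 21.7, 22.6 and 23.1 with ibrutinib, 60.6, 62.3 and 61.8 with asparaginase and 41.02, 40.5 and 39.5 with the combination. No 2 of the 4 treatment groups overlapped within either line, and ibrutinib libraries lay above untreated ones in Nalm6 and below them in Sem. With asparaginase the log2 change of FPKM + 1 was 1.24 ± 0.06 (SE, limma adjusted p = 4.1e-08) in Nalm6, a 2.4-fold ratio of mean FPKM, and 0.93 ± 0.04 (SE, limma adjusted p = 3.7e-08) in Sem, 1.94-fold.

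Of its light chains, SLC7A5 was the most abundant in both lines. The SLC7A5 gene (ENSG00000103257) lies on the minus strand of chromosome 16, from 87830023 to 87869488. SLC7A5 in Nalm6 was 136, 104 and 132 FPKM untreated, 159, 159 and 152 with ibrutinib, 191, 244 and 246 with asparaginase and 139, 186 and 184 with the combination. SLC7A5 in Sem was 80.5, 83.7 and 84.1 FPKM untreated, 53.2, 54 and 54.8 with ibrutinib, 161, 168 and 171 with asparaginase and 90.3, 97.6 and 91.4 with the combination. The asparaginase libraries were the highest group in each line, and the Sem groups did not overlap. The asparaginase change was 0.87 ± 0.14 (SE, limma adjusted p = 0.00029) in Nalm6 and 1.0 ± 0.04 (SE, limma adjusted p = 1.9e-08) in Sem. An antisense gene, AC126696.2, overlaps SLC7A5 and reached 32.5 FPKM; whether libraries kept strand is not given in the sources used here, so reads of this pair cannot be told apart. The copy SLC7A5P1 had group means of 1.81 to 4.62 FPKM in Nalm6 and 11.5 to 14 in Sem, highest in untreated cells of each.

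SLC7A11, the cystine carrier, was under 1 FPKM in untreated cells of both lines. The SLC7A11 gene (ENSG00000151012) lies on the minus strand of chromosome 4, from 138164097 to 138242349. For SLC7A11 the Nalm6 libraries gave 0.899, 0.888 and 0.919 FPKM untreated, 1.96, 1.87 and 1.84 with ibrutinib, 3.52, 3.17 and 3.27 with asparaginase and 4.12, 3.48 and 3.66 with the combination. For SLC7A11 the Sem libraries gave 0.651, 0.787 and 0.714 FPKM untreated, 1.49, 1.598 and 1.46 with ibrutinib, 7.71, 8.08 and 8.396 with asparaginase and 5.91, 5.97 and 6.24 with the combination. Every treated library of either line was above every untreated one, and in Sem the asparaginase libraries were above the combination ones, whereas these 2 groups overlapped in Nalm6. The asparaginase change was 1.18 ± 0.07 (SE, limma adjusted p = 1.7e-07) in Nalm6, 3.68-fold in mean FPKM, and 2.40 ± 0.06 (SE, limma adjusted p = 3.4e-10) in Sem, 11.2-fold; the log2 change of FPKM + 1 understates a fold at such low levels.

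The other light chains had smaller changes with asparaginase. SLC7A6, which exchanges cationic for neutral amino acids, had mean levels of 12.8, 12, 11.5 and 8.99 FPKM untreated, with ibrutinib, with asparaginase and with the combination in Nalm6, and 22.6, 20.1, 24.6 and 19.02 FPKM in Sem. SLC7A6OS, which overlaps SLC7A6 on the other strand, reached 9.37 FPKM. The asparaginase change of SLC7A6 was -0.13 (limma adjusted p = 0.056) in Nalm6 and 0.12 (limma adjusted p = 0.0354) in Sem; the Sem call did not hold without untreated library 1 (0.116), untreated library 3 (0.0733), asparaginase library 2 (0.121) or asparaginase library 3 (0.0663). Mean SLC7A7 levels were, in the same order of groups, 0.472, 0.396, 0.776 and 0.794 FPKM in Nalm6, where it was not tested, and 6.87, 6.38, 6.53 and 6.82 FPKM in Sem. SLC7A8 in Sem had means of 1.05, 1.14, 1.04 and 0.9498 FPKM. With asparaginase SLC7A7 had a log2 change of -0.06 (limma adjusted p = 0.554) and SLC7A8 of -0.01 (limma adjusted p = 0.954) in Sem, neither past the threshold.

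Among cationic carriers, SLC7A1 rose in both lines. The SLC7A1 gene (ENSG00000139514) lies on the minus strand of chromosome 13, from 29509410 to 29595688. SLC7A1 levels in Nalm6 were 35.6, 30.3 and 34.9 FPKM untreated, 38.4, 37.2 and 35.3 with ibrutinib, 42.96, 50.1 and 50.8 with asparaginase and 30.7, 35.2 and 34.9 with the combination. SLC7A1 levels in Sem were 25.2, 28.3 and 26.2 FPKM untreated, 23.8, 23.5 and 24.6 with ibrutinib, 47.7, 48.2 and 47.4 with asparaginase and 33.7, 34.5 and 35.9 with the combination. Asparaginase libraries stood above all others of the line, and in Nalm6 the combination libraries overlapped the untreated ones. The asparaginase change was 0.50 ± 0.08 (SE, limma adjusted p = 0.00039) in Nalm6 and 0.82 ± 0.04 (SE, limma adjusted p = 2.2e-07) in Sem. SLC7A3, found in Sem alone of these 2 lines, was 13.1, 12.2 and 14.3 FPKM untreated, 18.5, 18.9 and 18.8 with ibrutinib, 26.1, 26.5 and 27.8 with asparaginase and 26.9, 25.5 and 27.1 with the combination. The SLC7A3 gene (ENSG00000165349) lies on the minus strand of chromosome X, from 70925582 to 70931125. The asparaginase and combination groups of SLC7A3 overlapped at about the same level, above ibrutinib and untreated libraries, with an asparaginase change of 0.97 ± 0.05 (SE, limma adjusted p = 2.4e-07). SLC7A2 had Sem means of 15.9, 14.1, 16.1 and 12.1 FPKM in the same order, and its asparaginase change of 0.02 (limma adjusted p = 0.846) did not pass.

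The neutral exchangers SLC1A5 and SLC1A4 rose in Sem, and SLC1A4 rose in Nalm6. SLC1A5 measured 92.5, 72.8 and 88.7 FPKM untreated, 90.03, 89.7 and 89.1 with ibrutinib, 82.1, 99.96 and 100.2 with asparaginase and 73.3, 94.05 and 89.3 with the combination in Nalm6. The SLC1A5 gene (ENSG00000105281) lies on the minus strand of chromosome 19, from 46774883 to 46788594. In Sem SLC1A5 measured 98.7, 93.5 and 103 FPKM untreated, 75.5, 75.05 and 80.4 with ibrutinib, 182, 186 and 184 with asparaginase and 114, 118 and 112 with the combination. The 4 Nalm6 groups overlapped, while in Sem all 4 were apart, with asparaginase highest and ibrutinib lowest. The asparaginase change of SLC1A5 was 0.15 ± 0.11 (SE, limma adjusted p = 0.274) in Nalm6, not past the threshold, and 0.90 ± 0.04 (SE, limma adjusted p = 9.2e-08) in Sem; the test of the difference between the lines is given below. SLC1A4, an exchanger of alanine, serine and cysteine, had means of 5.83, 6.73, 9.88 and 8.81 FPKM in Nalm6 and 11.7, 10.04, 23.6 and 16.01 FPKM in Sem, with asparaginase changes of 0.67 ± 0.09 and 0.96 ± 0.05 (SE, limma adjusted p = 9.5e-05 and 1.2e-07). The antisense gene AC008622.2 overlaps SLC1A5 and reached 38 FPKM.

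SLC1A3, which takes up glutamate and aspartate, went the other way. The SLC1A3 gene (ENSG00000079215) lies on the plus strand of chromosome 5, from 36606355 to 36688334. SLC1A3 in Nalm6 read 2.18, 2.46 and 2.43 FPKM untreated, 2.74, 2.15 and 2.003 with ibrutinib, 0.636, 0.624 and 0.569 with asparaginase and 0.662, 0.807 and 0.546 with the combination. Its 6 libraries with asparaginase, alone or combined, lay below all 6 others, and the asparaginase change was -1.06 ± 0.10 (SE, limma adjusted p = 6.8e-06). In Sem SLC1A3 read 0.431, 0.606 and 0.311 FPKM untreated, 0.103, 0.133 and 0.131 with ibrutinib, 0.275, 0.121 and 0.168 with asparaginase and 0.0842, 0.0192 and 0.103 with the combination, too low to test. The antisense gene AC008957.1 overlaps SLC1A3 and reached 9.56 FPKM.

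The glycine carrier SLC6A9 rose in both lines. The SLC6A9 gene (ENSG00000196517) lies on the minus strand of chromosome 1, from 43991500 to 44031467. Nalm6 libraries held SLC6A9 at 3.36, 3.02 and 3.45 FPKM untreated, 5.48, 5.45 and 5.81 with ibrutinib, 11.1, 11.6 and 12.5 with asparaginase and 6.88, 8.81 and 8.22 with the combination. Sem libraries held SLC6A9 at 0.5797, 0.512 and 0.555 FPKM untreated, 0.951, 0.954 and 1.37 with ibrutinib, 7.501, 7.49 and 7.72 with asparaginase and 4.57, 5.22 and 4.695 with the combination. The gene CCDC24, which overlaps SLC6A9 on the other strand, reached 1.33 FPKM. The order untreated, ibrutinib, combination, asparaginase was the same in both lines, with no overlap between groups. The asparaginase change was 1.57 ± 0.08 (SE, limma adjusted p = 7.9e-08) in Nalm6, 3.57-fold in mean FPKM, and 2.47 ± 0.08 (SE, limma adjusted p = 7.3e-09) in Sem, 13.8-fold.

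The taurine carrier SLC6A6 fell. The SLC6A6 gene (ENSG00000131389) lies on the plus strand of chromosome 3, from 14402576 to 14489349. SLC6A6 was measured at 12.8, 11.2 and 12.1 FPKM untreated, 10.5, 9.97 and 10.2 with ibrutinib, 6.12, 6.61 and 6.52 with asparaginase and 5.06, 5.998 and 5.73 with the combination in Nalm6. SLC6A6 was measured at 2.92, 3.29 and 3.42 FPKM untreated, 2.79, 2.97 and 3.45 with ibrutinib, 2.603, 2.58 and 2.54 with asparaginase and 2.08, 2.47 and 2.32 with the combination in Sem. The asparaginase libraries lay below the untreated ones in both lines, with a change of -0.81 ± 0.06 (SE, limma adjusted p = 1.5e-06) in Nalm6 and -0.24 ± 0.08 (SE, limma adjusted p = 0.0407) in Sem. The Sem call did not hold without untreated library 2 (0.0928), untreated library 3 (0.132), asparaginase library 1 (0.083), asparaginase library 2 (0.0896) or asparaginase library 3 (0.0938). SLC6A16, an orphan member with no assigned substrate, was 0.198, 0.179 and 0.202 FPKM untreated, 0.535, 0.486 and 0.564 with ibrutinib, 2.03, 2.35 and 2.04 with asparaginase and 3.83, 4.28 and 4.603 with the combination in Nalm6. The SLC6A16 gene (ENSG00000063127) lies on the minus strand of chromosome 19, from 49289638 to 49325225. The 4 groups of SLC6A16 did not overlap and stood in the order untreated, ibrutinib, asparaginase, combination, with an asparaginase change of 1.40 ± 0.08 (SE, limma adjusted p = 2.3e-07), 11.1-fold in mean FPKM. SLC6A16 passed the filter in Nalm6 only through its asparaginase and combination libraries, so without a rise it would not have been tested. In Sem SLC6A16 was 0.0326, 0.132 and 0.118 FPKM untreated, 0.143, 0.0989 and 0.193 with ibrutinib, 0.268, 0.243 and 0.1203 with asparaginase and 0.212, 0.1503 and 0.342 with the combination, too low to test.

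System A carriers SLC38A1 and SLC38A2, which take up small neutral amino acids such as alanine and glutamine with sodium, rose in both lines. SLC38A2 was found at 48.3, 53.3 and 48.9 FPKM untreated, 61.6, 63.2 and 62.7 with ibrutinib, 85.2, 82.3 and 80.3 with asparaginase and 98.99, 89.5 and 90.6 with the combination in Nalm6. The SLC38A2 gene (ENSG00000134294) lies on the minus strand of chromosome 12, from 46358189 to 46372867. In Sem SLC38A2 was found at 62.5, 68.4 and 66.3 FPKM untreated, 80.9, 80.4 and 81.4 with ibrutinib, 100.4, 96.4 and 99.2 with asparaginase and 88.2, 88.1 and 86.9 with the combination. No groups overlapped; the combination was highest in Nalm6 and asparaginase highest in Sem. SLC38A1 was found at 43.2, 43.05 and 42.5 FPKM untreated, 46.4, 46.7 and 46.2 with ibrutinib, 55.9, 57.3 and 57.01 with asparaginase and 50.9, 50.9 and 49.5 with the combination in Nalm6. The SLC38A1 gene (ENSG00000111371) lies on the minus strand of chromosome 12, from 46183063 to 46270017. In Sem SLC38A1 was found at 45.5, 52.9 and 50.7 FPKM untreated, 51.4, 52.9 and 54.5 with ibrutinib, 76.4, 75.6 and 74.7 with asparaginase and 59.3, 64.8 and 62.2 with the combination. For SLC38A1 asparaginase was the highest group in both lines, and untreated and ibrutinib libraries overlapped in Sem. The asparaginase change was 0.71 ± 0.05 and 0.58 ± 0.04 for SLC38A2 and 0.39 ± 0.03 and 0.60 ± 0.05 for SLC38A1, Nalm6 first (SE, limma adjusted p = 9.9e-07, 8.2e-07, 2.7e-06 and 1.7e-05).

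The system N carrier SLC38A5, which moves glutamine, asparagine and histidine, fell in both lines. The SLC38A5 gene (ENSG00000017483) lies on the minus strand of chromosome X, from 48458537 to 48470256. SLC38A5 gave 23.3, 19.2 and 22.2 FPKM untreated, 17.9, 18.01 and 16.4 with ibrutinib, 10.8, 13.4 and 12.5 with asparaginase and 7.22, 9.06 and 8.43 with the combination in Nalm6. SLC38A5 gave 26.2, 26.9 and 27.7 FPKM untreated, 20.1, 19.8 and 23.3 with ibrutinib, 22.03, 22.8 and 22.6 with asparaginase and 17.9, 18.8 and 17.7 with the combination in Sem. Untreated libraries were the highest group and combination libraries the lowest in each line, apart from all others. The asparaginase change was -0.77 ± 0.10 (SE, limma adjusted p = 5.7e-05) in Nalm6 and -0.25 ± 0.06 (SE, limma adjusted p = 0.00627) in Sem. SLC38A7, a lysosomal carrier of glutamine, gave 2.83, 2.38 and 2.86 FPKM untreated, 3.45, 2.89 and 2.77 with ibrutinib, 3.69, 3.64 and 4.03 with asparaginase and 3.79, 3.97 and 4.403 with the combination in Nalm6. The SLC38A7 gene (ENSG00000103042) lies on the minus strand of chromosome 16, from 58665109 to 58685104. In Sem SLC38A7 gave 2.62, 1.91 and 2.53 FPKM untreated, 1.8, 2.17 and 1.79 with ibrutinib, 2.19, 2.49 and 1.91 with asparaginase and 1.81, 1.94 and 2.11 with the combination. Asparaginase and combination libraries of SLC38A7 were above untreated ones in Nalm6 (0.38 ± 0.08 SE, limma adjusted p = 0.00256 with asparaginase), while in Sem the groups overlapped (-0.07, limma adjusted p = 0.687).

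Further intracellular carriers changed less. SLC38A9, the lysosomal arginine sensor that signals to mTORC1, had means of 2.796, 3.35, 3.201 and 3.43 FPKM untreated, with ibrutinib, with asparaginase and with the combination in Nalm6, and 3.12, 3.58, 3.11 and 4.05 FPKM in Sem. SLC38A10 had means of 12.2, 12.7, 15.03 and 15.6 FPKM in Nalm6 and 13.4, 13.9, 14.3 and 15.2 FPKM in Sem; the antisense gene AC027601.4 that overlaps it reached 10.5 FPKM. The asparaginase change of SLC38A9 did not pass in Nalm6 (0.15, limma adjusted p = 0.0957) or in Sem (0.00, limma adjusted p = 0.999). SLC38A10 passed in Nalm6 (0.28, limma adjusted p = 0.0469) but not without untreated library 2 (0.158), untreated library 3 (0.0946), asparaginase library 2 (0.137) or asparaginase library 3 (0.142), and did not pass in Sem (0.08, limma adjusted p = 0.252). The proton coupled carrier SLC36A1 had means of 2.87, 2.83, 2.58 and 2.69 FPKM in Nalm6 and 2.33, 2.26, 2.12 and 2.19 FPKM in Sem, and its relative SLC36A4 1.08, 1.22, 0.822 and 0.725 FPKM and 2.86, 2.74, 2.46 and 2.49 FPKM. Neither proton coupled carrier passed with asparaginase, with changes of -0.11 and -0.09 for SLC36A1 and -0.20 and -0.16 for SLC36A4.

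SLC43A1 and SLC43A2 are uniporters of large neutral amino acids, and SLC43A3 is known as a carrier of purine nucleobases. SLC43A1 came to 14.1, 12.97 and 14.01 FPKM untreated, 14.4, 15.1 and 14.9 with ibrutinib, 29.9, 34.2 and 35.02 with asparaginase and 24.1, 28.5 and 27.3 with the combination in Nalm6. The SLC43A1 gene (ENSG00000149150) lies on the minus strand of chromosome 11, from 57484534 to 57515786. In Sem SLC43A1 came to 10.5, 9.92 and 10.6 FPKM untreated, 11.2, 9.69 and 10.2 with ibrutinib, 16.4, 15.96 and 16.3 with asparaginase and 13.1, 12.3 and 11.9 with the combination. Asparaginase libraries were highest in both lines, with a change of 1.21 ± 0.07 (SE, limma adjusted p = 2.3e-07) in Nalm6 and 0.60 ± 0.05 (SE, limma adjusted p = 1.7e-05) in Sem. SLC43A2 came to 3.26, 2.57 and 3.08 FPKM untreated, 3.49, 3.54 and 3.04 with ibrutinib, 3.89, 4.47 and 4.66 with asparaginase and 4.29, 4.99 and 4.72 with the combination in Nalm6. The SLC43A2 gene (ENSG00000167703) lies on the minus strand of chromosome 17, from 1569267 to 1628886. In Sem SLC43A2 came to 5.34, 4.64 and 5.15 FPKM untreated, 1.898, 1.895 and 2.38 with ibrutinib, 4.85, 4.61 and 4.61 with asparaginase and 2.099, 2.04 and 2.09 with the combination. The Sem values fell into a high pair of groups, untreated and asparaginase, and a low pair, ibrutinib and combination, while in Nalm6 asparaginase libraries were above untreated ones (0.43, limma adjusted p = 0.00154); the asparaginase change in Sem was -0.09 (limma adjusted p = 0.411). SLC43A3 came to 21.5, 18.1 and 20.3 FPKM untreated, 17.2, 17.2 and 17.9 with ibrutinib, 15.1, 15.9 and 17.1 with asparaginase and 9.28, 11.4 and 11.2 with the combination in Nalm6. The SLC43A3 gene (ENSG00000134802) lies on the minus strand of chromosome 11, from 57406954 to 57427580. In Sem SLC43A3 came to 23.4, 17.6 and 24.1 FPKM untreated, 14.6, 14.01 and 15.4 with ibrutinib, 25.8, 27.02 and 26.8 with asparaginase and 14.6, 14.3 and 16.4 with the combination. With asparaginase SLC43A3 was below untreated in Nalm6 (-0.30, limma adjusted p = 0.00888) and above it in Sem (0.29, limma adjusted p = 0.046). The Nalm6 call was lost after rescaling to TPM (adjusted p = 0.146) and under quantile normalization (0.0906). The Sem call was lost without untreated library 2 (0.0777), asparaginase library 1 (0.0783), asparaginase library 2 (0.114) or asparaginase library 3 (0.103).

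**Figure D2:**
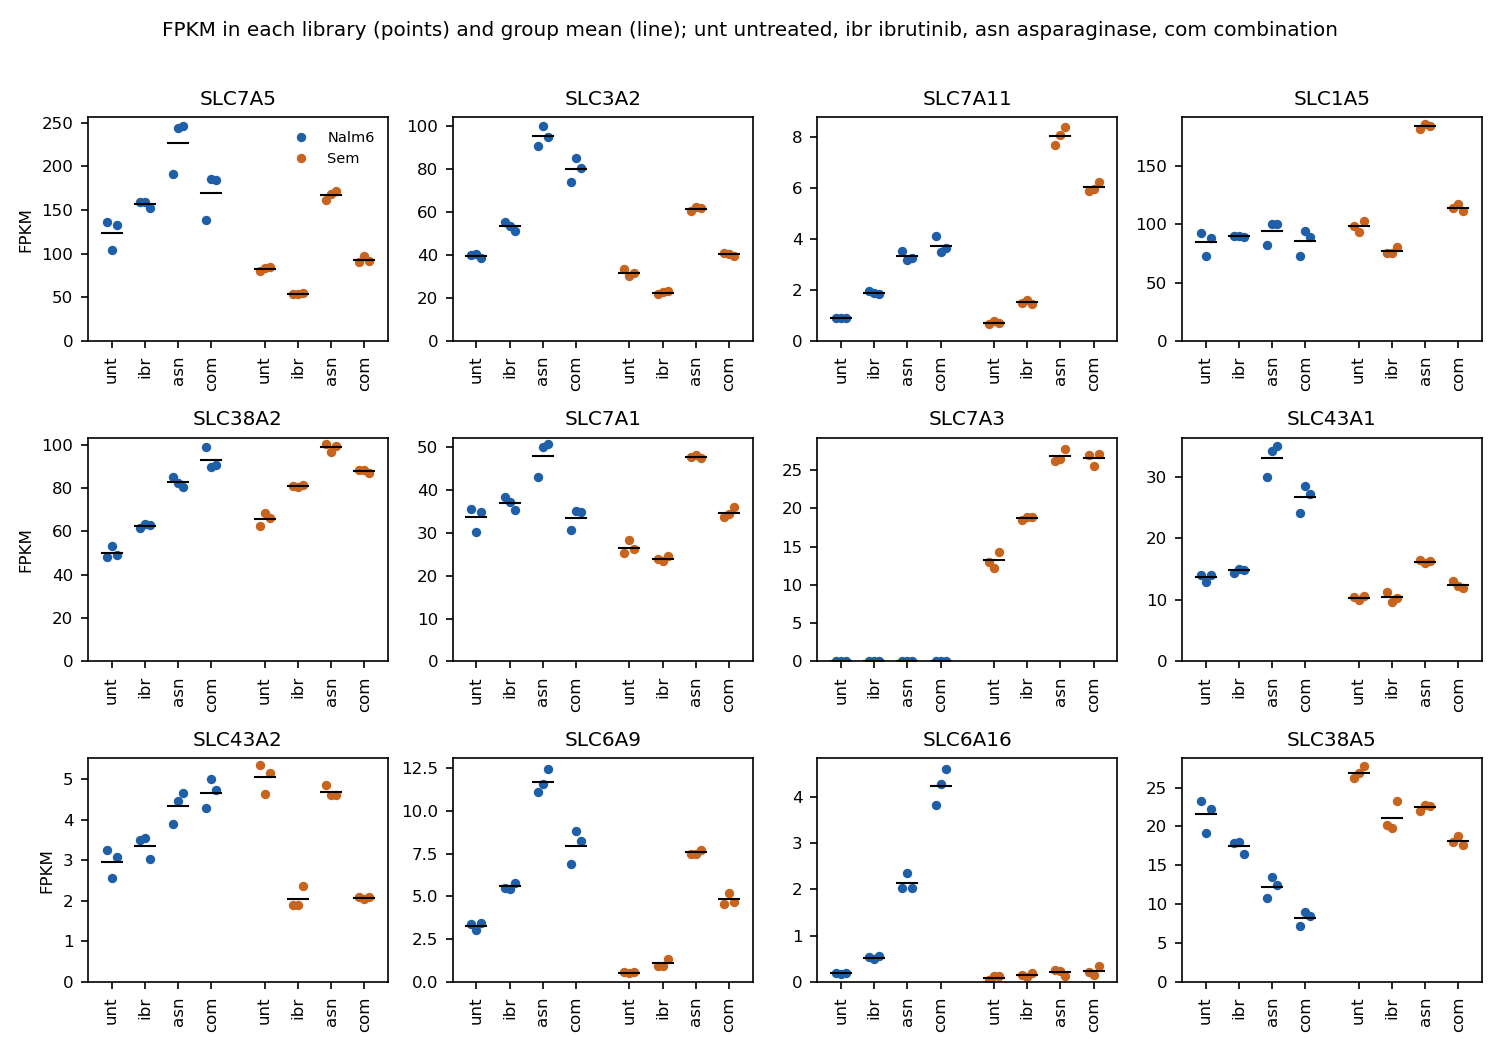
FPKM (vertical axes from 0, a scale for each gene) of 12 members in every library, points, with the mean of each group of 3 as a black line; blue is Nalm6 and orange Sem. SLC7A5, SLC3A2, SLC7A1, SLC43A1 and SLC6A9 are highest with asparaginase in both lines, SLC7A3 is at 0 in Nalm6, and SLC43A2 in Sem is low in the ibrutinib and combination groups.

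Ibrutinib was compared with no treatment in the same way. In Nalm6 5 of 22 tested members rose and 0 fell, beside 4.99% and 7.46% of all genes. At an unadjusted p under 0.05, limma placed 3 Nalm6 members lower, limma-voom on the recovered reads called 0 lower, and with both lines in 1 fit 6 were higher and 2 lower. Over all genes, 3728 of 13237 had an unadjusted p under 0.05 in either direction. Limma-voom called 1166 of all genes higher and 644 lower, and the fit of both lines 986 and 1521, in place of 660 and 987. In Sem 4 of 24 rose and 10 fell, beside 20.3% and 21.3%. The members' median was 0.12 in Nalm6 and -0.07 in Sem, and that of all genes -0.01 and 0.01. SLC38A2, SLC6A9 and SLC7A11 rose in both lines. After rescaling to TPM, 7 members were higher and 0 lower, and over all genes tested 1049 were higher and 440 lower in place of 660 and 987 in Nalm6, and in Sem 6 members were higher and 7 lower, and over all genes tested 3902 were higher and 2026 lower in place of 2719 and 2854.

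SLC7A11 rose by 0.60 ± 0.07 in Nalm6 and 0.55 ± 0.06 in Sem (SE, limma adjusted p = 0.00053 and 2.2e-05), 2.1-fold and 2.11-fold in mean FPKM. SLC6A9 rose by 0.62 ± 0.08 and 0.43 ± 0.08 (SE, limma adjusted p = 0.00104 and 0.00153), and SLC38A2 by 0.31 and 0.30 (limma adjusted p = 0.00398 and 6.7e-05). The heavy chain SLC3A2 rose in Nalm6 (0.42 ± 0.06 SE, limma adjusted p = 0.00147) and fell in Sem (-0.48 ± 0.04 SE, limma adjusted p = 5e-06). Its light chain SLC7A5 fell in Sem (-0.61 ± 0.04 SE, limma adjusted p = 9.1e-07), and in Nalm6 the change was 0.35 ± 0.14 (SE, limma adjusted p = 0.129), not past the threshold although the groups did not overlap. The largest fall among Sem members was that of SLC43A2 (-0.99 ± 0.07 SE, limma adjusted p = 2e-06), whose mean went from 5.04 to 2.06 FPKM. SLC43A3 (-0.52), SLC1A5 (-0.35), SLC38A5 (-0.34) and SLC1A4 (-0.20) fell in Sem as well (limma adjusted p = 0.00141, 7.2e-05, 0.00055 and 0.00479), and SLC7A3 rose (0.48 ± 0.05 SE, limma adjusted p = 3.4e-05). Smaller falls in Sem, SLC7A6 (-0.16), SLC7A2 (-0.16) and SLC7A1 (-0.14), did not pass after rescaling to TPM (adjusted p = 0.14, 0.29 and 0.326). SLC7A2 was also lost without ibrutinib library 1 (0.0605) or ibrutinib library 3 (0.0609), and SLC7A1 without untreated library 2 (0.0565) or ibrutinib library 2 (0.0601). In Nalm6 SLC6A16 rose by 0.36 (limma adjusted p = 0.0204), a call lost without untreated library 1 (0.0503), untreated library 3 (0.0578), ibrutinib library 1 (0.059) or ibrutinib library 3 (0.0621) and under quantile normalization (0.225). Without the Nalm6 libraries that stood apart, a choice made after seeing the data, 8 Nalm6 members were higher and 3 lower with ibrutinib, while over all genes 1242 were higher and 2097 lower in place of 660 and 987.

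With both agents against untreated cells, 13 of 22 members rose and 6 fell in Nalm6, beside 32.4% and 31.3% of all genes, and 13 of 24 rose and 6 fell in Sem, beside 26.6% and 26.3%. The median over tested members was 0.27 in Nalm6 and 0.17 in Sem, and over all genes 0.02 and 0.02. Members that rose in both lines were SLC7A5, SLC3A2, SLC7A11, SLC1A4, SLC38A1, SLC38A2, SLC38A9, SLC38A10, SLC43A1 and SLC6A9; those that fell in both were SLC38A5, SLC43A3, SLC6A6 and SLC7A6; SLC43A2 rose in Nalm6 and fell in Sem. After rescaling to TPM, which put the median of all genes at 0.19 in Nalm6 and 0.11 in Sem, 13 members were higher and 5 lower, and over all genes tested 5581 were higher and 3052 lower in place of 4292 and 4138 in Nalm6. In Sem, after the same rescaling, 13 members were higher and 6 lower, and over all genes tested 4598 were higher and 2714 lower in place of 3569 and 3523.

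The largest rise in Nalm6 was that of the orphan SLC6A16 (2.13 ± 0.08 SE, limma adjusted p = 4.9e-09), 21.9-fold in mean FPKM, followed by SLC7A11 (1.32 ± 0.07 SE, limma adjusted p = 3.4e-08) and SLC6A9 (1.06 ± 0.08 SE, limma adjusted p = 6.1e-07). In Sem SLC7A11 (2.04 ± 0.06 SE, limma adjusted p = 1.4e-09) and SLC6A9 (1.91 ± 0.08 SE, limma adjusted p = 2.2e-08) led. SLC3A2 rose by 0.99 ± 0.06 in Nalm6 and 0.34 ± 0.04 in Sem (SE, limma adjusted p = 8.5e-08 and 2.8e-05). SLC7A5 rose by 0.44 ± 0.14 and 0.17 ± 0.04 (SE, limma adjusted p = 0.0148 and 0.00307); the Nalm6 call did not hold without untreated library 2 (0.0614), combination library 2 (0.0583) or combination library 3 (0.0558), and the Sem call did not hold when both lines shared 1 fit (0.217). The deepest falls were those of SLC38A5 (-1.29), SLC1A3 (-1.01), SLC6A6 (-0.98) and SLC43A3 (-0.85) in Nalm6 and of SLC43A2 (-0.97), SLC38A5 (-0.55) and SLC43A3 (-0.49) in Sem. SLC7A1 showed no detectable change in Nalm6 (0.00, limma adjusted p = 0.997) and rose in Sem (0.37, limma adjusted p = 2.3e-05), and SLC7A3 rose in Sem (0.96, limma adjusted p = 9.7e-08). SLC7A6 fell in both lines, with changes of -0.46 and -0.24 (limma adjusted p = 2e-05 and 0.00025), and SLC7A2 fell in Sem, with a change of -0.37 (0.00011). Of the small changes in Nalm6, SLC38A9 (0.22) was lost without untreated library 1 (0.0679) or combination library 1 (0.059). SLC38A10 (0.32) was lost without untreated library 2 (0.0804), combination library 2 (0.0859) or combination library 3 (0.0702). SLC36A4 (-0.27) was lost without untreated library 1 (0.0604), untreated library 2 (0.0973), untreated library 3 (0.0628), combination library 2 (0.0896) or combination library 3 (0.101). SLC38A10 in Sem (0.16) was lost without combination library 2 (0.0688).

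**Figure D3:**
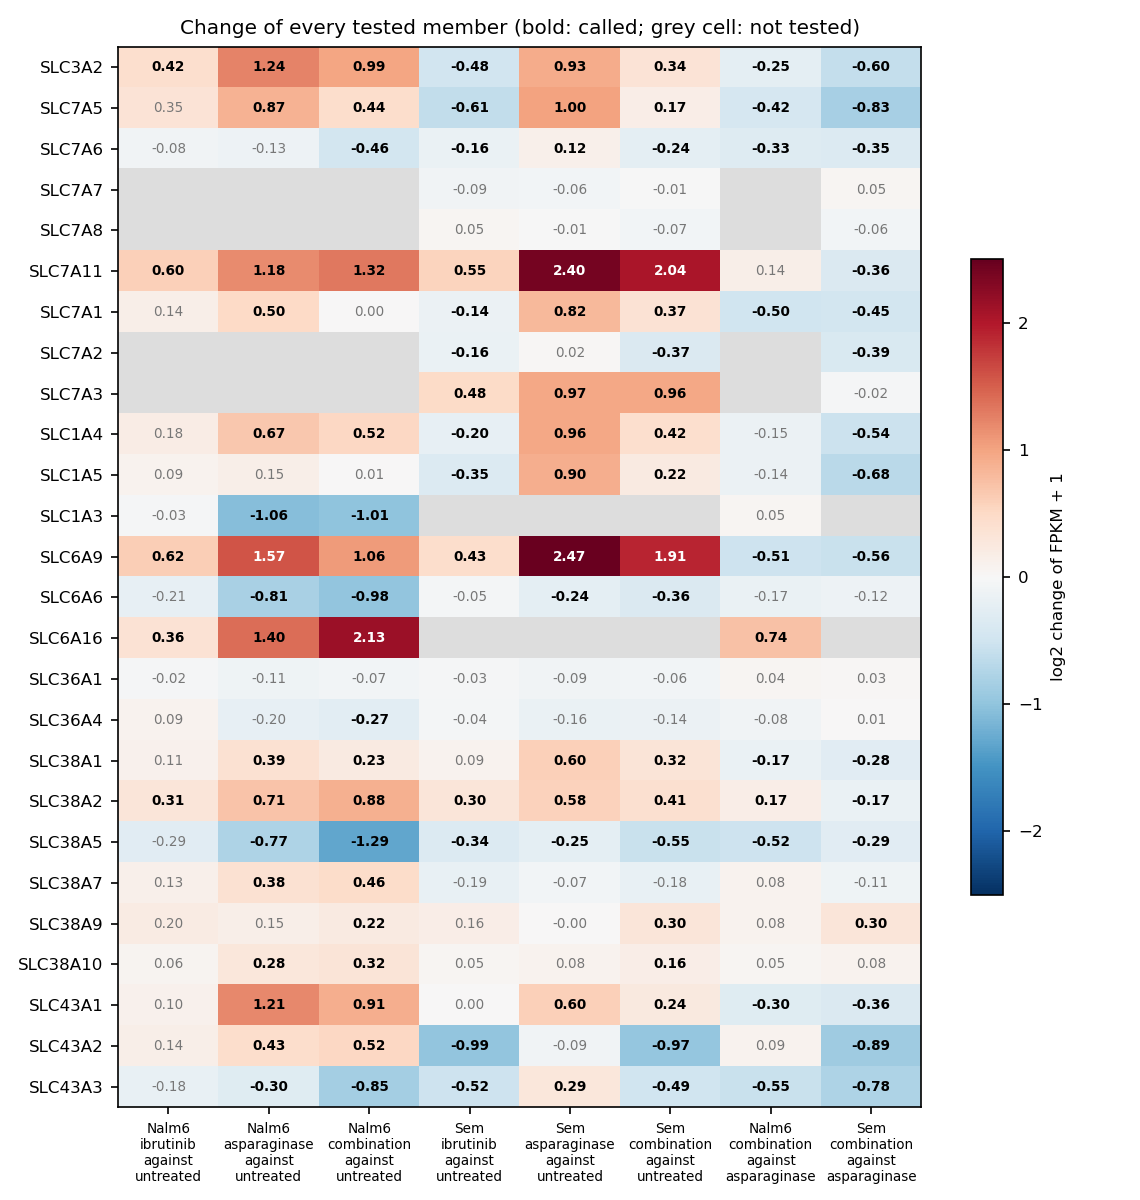
Log2 change of FPKM + 1 of every tested member (rows, in the order of their roles) in 8 comparisons (columns: each treatment against untreated and the combination against asparaginase, in Nalm6 and Sem), red for higher and blue for lower, bold where called. SLC7A11 and SLC6A9 are the darkest rows with asparaginase in Sem (2.40 and 2.47), and most cells of the 2 right-hand columns are below 0.

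The combination was then set against each agent. Against asparaginase alone, 2 of 22 members were higher and 9 lower in Nalm6, beside 9.8% and 12% of all genes, and 1 of 24 were higher and 15 lower in Sem, beside 18.6% and 19.8%. The members' median was -0.14 in Nalm6 and -0.32 in Sem, with all genes at 0.00 and 0.01. Lower in both lines were SLC7A5, SLC3A2, SLC7A1, SLC7A6, SLC38A1, SLC38A5, SLC43A1, SLC43A3 and SLC6A9. In Sem the widest gaps were SLC43A2 (-0.89 ± 0.07 SE, limma adjusted p = 3.7e-06), SLC7A5 (-0.83 ± 0.04 SE, limma adjusted p = 6.7e-08), SLC43A3 (-0.78), SLC1A5 (-0.68 ± 0.04 SE, limma adjusted p = 6.5e-07) and SLC3A2 (-0.60). In Nalm6 they were SLC43A3 (-0.55 ± 0.08 SE, limma adjusted p = 0.00086), SLC38A5 (-0.52), SLC6A9 (-0.51 ± 0.08 SE, limma adjusted p = 0.0013) and SLC7A1 (-0.50), and the SLC3A2 difference was -0.25. SLC7A5 in Nalm6, at -0.42 (limma adjusted p = 0.0493), did not pass without asparaginase library 2 (0.151), asparaginase library 3 (0.156), combination library 1 (0.144), combination library 2 (0.0515) or combination library 3 (0.0551). SLC43A1 there, at -0.30 (limma adjusted p = 0.0129), did not pass without asparaginase library 2 (0.0523) or asparaginase library 3 (0.056). The orphan SLC6A16 was higher with the combination in Nalm6 (0.74 ± 0.08 SE, limma adjusted p = 0.00017), as was SLC38A9 in Sem (0.30, limma adjusted p = 0.0113). SLC38A2 was higher in Nalm6 (0.17, limma adjusted p = 0.0399) and lower in Sem (-0.17, limma adjusted p = 0.00305); the Nalm6 call was lost without asparaginase library 2 (0.103), asparaginase library 3 (0.131), combination library 1 (0.101) or combination library 3 (0.0566), and the Sem call under quantile normalization (0.277).

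Against ibrutinib alone, 10 members were higher with the combination and 6 lower in Nalm6, beside 29.5% and 27.7% of all genes, and 10 were higher and 3 lower in Sem, beside 4.81% and 7.3%. The members' median was 0.11 and 0.12, with all genes at 0.03 and 0.00. SLC6A9 (0.44 and 1.48), SLC7A11 (0.71 and 1.48) and SLC3A2 (0.57 and 0.82) were higher in Nalm6 and Sem. SLC7A5 was higher in Sem (0.77 ± 0.04 SE, limma adjusted p = 3.3e-07), and in Nalm6 its change of 0.10 (limma adjusted p = 0.557) did not pass. The falls in Nalm6 were led by SLC38A5 (-1.0), SLC1A3 (-0.98), SLC6A6 (-0.77) and SLC43A3 (-0.67). The 3 falls in Sem, SLC6A6 (-0.31), SLC7A2 (-0.21) and SLC38A5 (-0.20), were lost without any one of 4, 6 and 4 of the 6 libraries compared (highest adjusted p = 0.0894, 0.0756 and 0.106). The Sem rises of SLC38A1 (0.23) and SLC43A1 (0.24) were lost without any one of 4 and 2 of them (highest 0.0719 and 0.0577). After rescaling to TPM, 11 members were higher and 6 lower, and over all genes tested 4794 were higher and 2957 lower in place of 3907 and 3663 in Nalm6.

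The interaction asks whether the log2 change with both agents differed from adding up the 2 single changes; a negative value means less than the sum. In Nalm6 0 members were above the sum and 7 below it, beside 2.99% and 2.58% of all genes. In Sem 0 were above and 9 below, beside 0.76% and 0.775%. For members above the sum, limma gave 1 in Nalm6 and 0 in Sem at an unadjusted p under 0.05, and limma-voom called 0 and 0. In Nalm6, quantile normalization and the fit of both lines each called 1 member above the sum and 8 below it. Over all genes, quantile normalization called 407 above and 481 below there, and the fit of both lines 721 and 638, in place of 396 and 342. Limma-voom called 321 of all genes above the sum in Nalm6 and 200 in Sem. An unadjusted p under 0.05, in either direction, was found for 2687 and 2217 of all genes. The members' median was -0.23 in Nalm6 and -0.21 in Sem, with all genes at 0.00 and 0.00. SLC6A9 had the lowest interaction in both lines, -1.13 ± 0.11 (SE, limma adjusted p = 0.00042) in Nalm6 and -0.99 ± 0.11 (SE, limma adjusted p = 0.0018) in Sem. SLC7A11 followed in Sem (-0.92 ± 0.08 SE, limma adjusted p = 0.0005) and was -0.47 ± 0.10 (SE, limma adjusted p = 0.018) in Nalm6, where it was not called under quantile normalization (0.0527). SLC38A1, SLC43A1 and SLC7A1 were the other members below the sum in both lines. The heavy chain SLC3A2 was below the sum in Nalm6 (-0.66 ± 0.08 SE, limma adjusted p = 0.00127), where each agent alone raised it, and its interaction in Sem was -0.12 (limma adjusted p = 0.318). SLC7A1 (-0.64 ± 0.12 SE, limma adjusted p = 0.0114) and SLC38A1 (-0.28 ± 0.05 SE, limma adjusted p = 0.00733) were also below the sum in Nalm6, and SLC38A2 (-0.46 ± 0.05 SE, limma adjusted p = 0.00116) and SLC7A3 (-0.49 ± 0.07 SE, limma adjusted p = 0.00913) in Sem.

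Several of these interaction calls were close to the threshold. In Nalm6 SLC7A5 (-0.77, limma adjusted p = 0.0454) and SLC43A1 (-0.40, limma adjusted p = 0.0449) did not hold without any one of 11 and 10 of the 12 libraries (adjusted p up to 0.107 and 0.107). In Sem SLC1A5 (-0.33, limma adjusted p = 0.0234), SLC38A1 (-0.37, limma adjusted p = 0.036), SLC7A1 (-0.31, limma adjusted p = 0.0331), SLC43A1 (-0.36, limma adjusted p = 0.0458) and SLC1A4 (-0.34, limma adjusted p = 0.0321) did not hold without any one of 6, 10, 11, 10 and 9 of the 12, with adjusted p up to 0.105. The count in Sem was 4 to 9 when 1 library was left out, and every member called then was below the sum. SLC6A9, SLC7A11, SLC38A2 and SLC7A3 in Sem, and SLC6A9, SLC3A2, SLC7A1, SLC7A11 and SLC38A1 in Nalm6, were called without any 1 library. After rescaling to TPM, 0 members were higher and 7 lower, and over all genes tested 255 were higher and 477 lower in place of 396 and 342 in Nalm6, and in Sem 0 members were higher and 11 lower, and over all genes tested 68 were higher and 340 lower in place of 102 and 104.

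**Figure D4:**
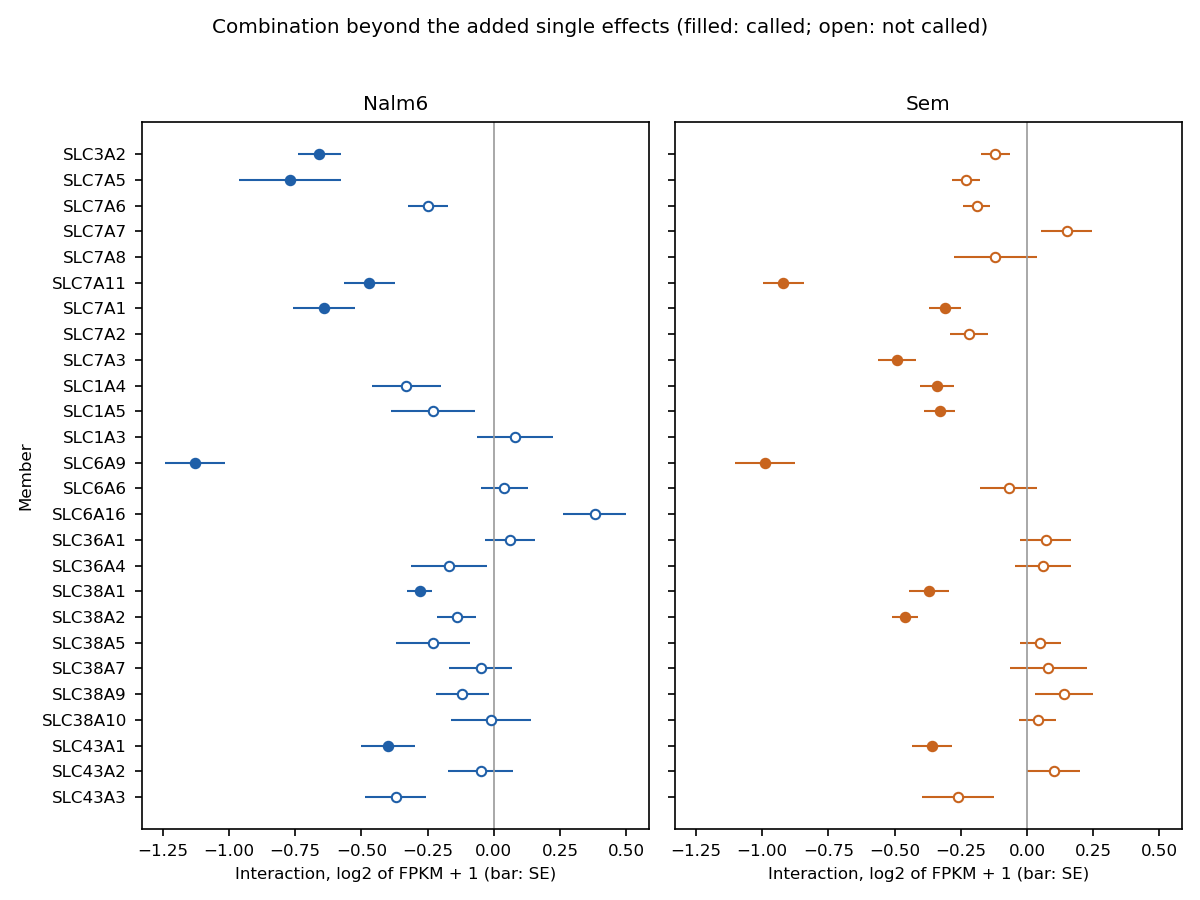
Interaction of ibrutinib and asparaginase for each tested member (rows) in Nalm6 (left) and Sem (right), on the log2 scale of FPKM + 1 with bars of 1 SE; filled points were called and the grey line at 0 marks additive changes. All filled points lie left of 0, farthest for SLC6A9 in both lines, and SLC6A16 in Nalm6 is the point farthest to the right (0.38, not called). The sign for SLC6A16 depends on the pseudocount of 1, since its untreated mean was 0.193 FPKM. Its ratios of mean FPKM to untreated were 2.74 with ibrutinib, 11.1 with asparaginase and 21.9 with the combination. The last is below the product of the other ratios.

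Effects were compared between the lines in 1 fit of all 24 libraries, as the effect in Sem minus that in Nalm6. For ibrutinib 1 of 26 members was higher and 5 lower in this difference, beside 7.56% and 6.09% of all 15116 genes. SLC43A2 (-1.12 ± 0.11 SE, limma adjusted p = 7.1e-07), SLC7A5 (-0.95 ± 0.15 SE, limma adjusted p = 0.00022) and SLC3A2 (-0.90 ± 0.07 SE, limma adjusted p = 3.2e-08) had the lowest differences. These 3 members fell in Sem, while in Nalm6 SLC3A2 rose and the changes of SLC43A2 and SLC7A5 did not pass. The difference for SLC1A5 (-0.44, limma adjusted p = 0.025) was lost without Nalm6 untreated library 2 (0.0615), Sem untreated library 3 (0.0621), Sem ibrutinib library 1 (0.052) or Sem ibrutinib library 2 (0.0549), and that for SLC1A4 (-0.38, limma adjusted p = 0.0192) without Nalm6 untreated library 2 (0.0508) or Nalm6 ibrutinib library 2 (0.0589). For asparaginase 12 were higher and 6 lower, beside 17.7% and 15.7%. These counts were 9 and 7 after rescaling to TPM and 7 and 7 by limma-voom. Over all genes tested, 2682 were higher and 2379 lower in this difference. After rescaling to TPM they were 2148 and 2777, and by limma-voom 1896 and 2706. The cystine carrier SLC7A11 (1.22 ± 0.07 SE, limma adjusted p = 5.4e-10), the glycine carrier SLC6A9 (0.90 ± 0.11 SE, limma adjusted p = 4.7e-06) and SLC1A5 (0.75 ± 0.13 SE, limma adjusted p = 0.00014) had higher changes in Sem, and SLC43A1 (-0.61 ± 0.09 SE, limma adjusted p = 4e-05), SLC3A2 (-0.31, limma adjusted p = 0.00171) and SLC6A16 (-1.25, limma adjusted p = 6.5e-08) had higher changes in Nalm6. SLC7A5 did not differ detectably (0.13 ± 0.15 SE, limma adjusted p = 0.535). For the combination 9 were higher and 8 lower, beside 22.2% and 18.6%, or 6 and 8 after rescaling to TPM and 5 and 8 by limma-voom. Over all genes tested, 3354 were higher and 2806 lower. After rescaling to TPM they were 2693 and 3242, and by limma-voom 2312 and 3080. The SLC7A7 differences with asparaginase (-0.34, limma adjusted p = 0.0211) and the combination (-0.30, limma adjusted p = 0.0345) were lost without any one of 4 and 7 libraries (adjusted p up to 0.064 and 0.101). SLC43A2 (-1.49 ± 0.11 SE, limma adjusted p = 2.9e-09) and SLC6A16 (-1.96, limma adjusted p = 8.4e-11) were the widest, both lower in Sem, and SLC6A9 (0.85, limma adjusted p = 5.5e-06) and SLC38A5 (0.75, limma adjusted p = 4.1e-05) were higher. Differences for SLC7A2, SLC7A3 and SLC7A8 compare Sem with libraries that held few or no reads, so they restate the change in Sem. Those for SLC6A16 mostly restate the change in Nalm6, since SLC6A16 was at or under 0.342 FPKM in Sem and not tested there. Its ratios of mean FPKM to untreated were 2.23 with asparaginase and 2.49 with the combination in Sem. In Nalm6 they were 11.1 and 21.9. By limma-voom the SLC7A3 differences were not called with ibrutinib (0.746), asparaginase (0.277) or the combination (0.259).

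The 33 members not tested stayed at or under 0.626 FPKM in every library. The highest of them were SLC38A6 (0.626 FPKM), the heavy chain SLC3A1 (0.397) and the light chain SLC7A9 (0.268). The 12 with no read were the glutamate carriers SLC1A1, SLC1A6 and SLC1A7, the SLC6 members SLC6A2, SLC6A14 and SLC6A15, the SLC7 members SLC7A10, SLC7A13 and SLC7A14, and SLC36A2, SLC38A3 and SLC38A4. Carriers best known from neurons, such as the serotonin carrier SLC6A4 and the dopamine carrier SLC6A3, were at or under 0.0531 FPKM. The creatine carrier SLC6A8 was at or under 0.0454 FPKM; near-identical copies of it exist in the genome, so its level is uncertain.

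A pair of further lists set the members beside other genes of amino acid supply. Of 25 regulators and targets of the amino acid response that are not carriers, 23 were tested in each line: 22 rose and 1 fell with asparaginase in Nalm6, and 22 rose in Sem (limma adjusted p under 0.05), with medians of 0.73 and 1.15. Among them the asparagine synthetase ASNS rose by 0.73 (limma adjusted p = 5.4e-05) in Nalm6 and 1.02 (limma adjusted p = 5.6e-05) in Sem, and TRIB3, a pseudokinase induced by ATF4, by 2.86 (limma adjusted p = 1.1e-08) and 2.83 (limma adjusted p = 2.4e-08). The 1 gene of the list that fell in Nalm6 was EIF2AK4, at -0.20 (limma adjusted p = 0.00403). With ibrutinib 16 rose in Nalm6, beside 4.99% of all genes, and 6 rose and 6 fell in Sem, beside 20.3% and 21.3%. Their interaction was below the sum for 19 in Nalm6 and 11 in Sem, beside 2.58% and 0.775% of all genes. Of 26 amino acid carriers of other families, 17 were tested in Nalm6 and 19 in Sem. With asparaginase 3 of these rose and 6 fell in Nalm6 (median -0.05), and 3 rose and 2 fell in Sem (median 0.00), beside the 13 and 13 members that rose. Of all genes, 28.2% rose and 28.1% fell in Nalm6 and 11.4% and 15.1% in Sem, with medians of 0.02 and 0.00. With the combination 3 rose and 8 fell in Nalm6, beside 32.4% and 31.3% of all genes, and 2 rose and 10 fell in Sem, beside 26.6% and 26.3%; the medians were -0.17 in both lines, with all genes at 0.02.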

How the data were processed

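RNA was sequenced in 24 libraries (2 lines, 4 treatments, 3 libraries each). Per the submitters' processing notes, the authors used fastp, STAR and featureCounts on hg38; versions, strandedness and the scaling of FPKM are not given in the sources used here. The authors deposited FPKM for each gene, but the decimal point of 21.22% of the 1409640 values was lost; the deposited columns are therefore of no standard unit until restored, and gene length in bases is a further deposited column of another unit. Each intact value times gene length was a whole number of reads (largest deviation 9.1e-13), so reads were recovered and the power of 10 of damaged values was chosen jointly per gene and line by its posterior; 477 restored values, none in a member, had one under 0.99. This was tested on simulated data. Depth was 15032899 to 18136263 reads. The FPKM values were not scaled to these reads alone. The depth they imply, divided by these reads, was 0.982 to 0.995 in untreated Nalm6 and 1.072 to 1.092 with asparaginase there. In Sem it was 0.919 to 0.940 untreated and 0.946 to 0.972 with asparaginase. Limma-voom used the assigned reads alone. The part of this scaling in the counts that moved between settings was not tested. Genes with at least 1 FPKM in at least 3 libraries of a fit were tested with limma 3.58.1 (R 4.3.3, with the intensity trend) on log2(FPKM + 1). Tests were two-sided. The p-values were adjusted by Benjamini-Hochberg over all genes tested in a fit and called under 0.05, for 12 libraries of a line (8 residual degrees of freedom) or all 24 (16). Per-library values are given for members with a called change of at least 1 against untreated, the 5 highest untreated members of each line and members with a called interaction or line difference of at least 0.5; all other tested members have group means. Alternatives were a pseudocount of 0.1, no filter, rescaling to TPM, quantile normalization, limma-voom on recovered reads, a replicate block, removal of a gene length trend, both lines in 1 fit and each library left out; leaving out the libraries that stood apart was added after seeing the data. The members and lists were chosen with earlier results of these data known. Tables and plots used Python 3.11.15, pandas 2.3.3 and matplotlib 3.10.9. Not every gene examined is reported here by name.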

Additional observations from a re-analysis of the deposited data

Results flagged for a closer look

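Each of the 20 members tested in both lines was compared for ibrutinib, asparaginase and the combination. The test of Sem minus Nalm6 on the log2 scale of FPKM + 1 passed for 31 effects. Each is marked because the same treatment gave a different change in the 2 lines. Of all 15116 genes tested, 7.56% were higher and 6.09% lower in this difference with ibrutinib. The shares were 17.7% and 15.7% with asparaginase and 22.2% and 18.6% with the combination, so a pass was frequent there among all genes. With ibrutinib, all 5 marked members were lower in Sem: SLC7A5 -0.95, SLC1A5 -0.44, SLC3A2 -0.90, SLC1A4 -0.38 and SLC43A2 -1.12. With asparaginase, 10 were higher in Sem, SLC1A5 0.75, SLC38A1 0.20, SLC7A1 0.32, SLC43A3 0.59, SLC38A5 0.52, SLC7A6 0.25, SLC1A4 0.29, SLC6A9 0.90, SLC6A6 0.58 and SLC7A11 1.22, and 4 lower, SLC3A2 -0.31, SLC43A1 -0.61, SLC43A2 -0.51 and SLC38A7 -0.44. With the combination, 7 were higher in Sem, SLC7A1 0.37, SLC43A3 0.37, SLC38A5 0.75, SLC7A6 0.23, SLC6A9 0.85, SLC6A6 0.63 and SLC7A11 0.72, and 5 lower, SLC38A2 -0.47, SLC3A2 -0.65, SLC43A1 -0.66, SLC43A2 -1.49 and SLC38A7 -0.63. The ibrutinib, asparaginase and combination differences are not independent of each other, since all use the same untreated libraries. The difference for SLC1A4 with asparaginase did not pass in 13 of 20 alternatives, and that for SLC43A3 with the combination in 8 of 20; 8 and 5 of these, in this order, left out 1 library (adjusted p up to 0.115 and 0.102).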

How the results depend on the processing

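Of 260 counts of members called under an alternative, 248 were within 1.5 times the reported one. With ibrutinib in Nalm6, 5 members were called, against 8 by limma-voom on recovered reads, 8 with both lines in 1 fit and 11 without the libraries that stood apart. For the Sem interaction, 9 were called, against 5 without the filter and 4 to 9 without 1 library. Without the filter, 65 of all genes were above the sum there and 71 below it, in place of 102 and 104. Of 223 single calls, 170 held under every alternative run, 53 were lost under at least 1, and 2 of these reversed under another: the line difference of the asparaginase effect for SLC38A1 became -0.03 under quantile normalization, and that of the combination effect for SLC1A3 became -0.02 with a pseudocount of 0.1 and -1.09 by limma-voom. The cause was not tested. Mean SLC1A3 went from 2.355 FPKM untreated to 0.672 with the combination in Nalm6, and from 0.449 to 0.0689 in Sem. By limma-voom the split of all genes also moved, to 1166 higher and 644 lower for ibrutinib in Nalm6, 4944 and 2834 for asparaginase and 5414 and 3314 for the combination there, 321 and 677 for its interaction, 2399 and 1773 for asparaginase in Sem and 200 and 449 for the Sem interaction, and to 1896 and 2706 for the line difference with asparaginase and 2312 and 3080 for that with the combination. Under quantile normalization it was 472 and 382 for ibrutinib in Nalm6 and 93 and 157 for the Sem interaction. The labels do not say that replicate numbers mark a shared batch, and the correlations do not show pairing in every pair: deviations of libraries with the same number correlated at -0.19 to 0.38 in Nalm6 and -0.03 to 0.10 in Sem, and 6 and 10 of 12 libraries correlated best with their own number, which in Sem is a hint of pairing from the data and not from the design. With a replicate block, 16 members in place of 17 were called for asparaginase in Nalm6, 18 in place of 19 for the combination, 9 in place of 11 for the combination against asparaginase, 6 in place of 7 for the interaction there and 17 in place of 18 for the line difference with asparaginase; the other 11 counts were equal. Members with few reads have changes that the pseudocount holds near 0.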
